A study of Mus musculus with 6 samples.

Results

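The glucocorticoid-responsive genes Fkbp5, Mt1 and Mt2 were followed in the adrenal gland of PACAP-deficient mice. The members were all cDNA clones whose annotated gene, under its current mouse symbol, was one of the 3. Each gene had 1 clone, so that 3 of the 36070 clones on the array were described. The title given to each clone in the scanner files named the same gene. Adrenal RNA of knockout mice (PACAP -/-, on the F2 background 129XC57BL6) was compared with adrenal RNA of wild-type mice (PACAP +/+, same background). Each of 6 spotted arrays held 1 knockout RNA labelled with Cy3 (green) and 1 wild-type RNA labelled with Cy5 (red). The labels name no treatment, age or sex, and they do not say whether the 6 arrays held RNA of separate animals, so the spread behind each p-value is that between arrays and may be technical.

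PACAP, the product of Adcyap1, is a neuropeptide released by the splanchnic nerve onto the chromaffin cells of the adrenal medulla, and the surrounding cortex makes the glucocorticoids. Fkbp5 encodes FKBP51, an immunophilin that binds Hsp90 in the glucocorticoid receptor complex and lowers the receptor's affinity for hormone. Its gene is itself induced by the receptor, which closes a short negative feedback loop. Mt1 and Mt2 encode metallothioneins, small cysteine-rich proteins that bind zinc, copper and cadmium, and both genes are induced by metals, through the factor Mtf1 at metal response elements (MREs), and by glucocorticoids. The series addressed which genes of the adrenal gland depend on PACAP.

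In the RefSeq annotation of the assembly GRCm38.p6, Mt2 lies at chr8:94172618-94173567 and Mt1 at chr8:94178883-94180327, both on the plus strand and 5315 bases apart. Fkbp5 lies at chr17:28398753-28486149 on the minus strand. Adcyap1, the targeted gene, is on the same chromosome 17, 64.7 Mb from Fkbp5. The 250 bases before the annotated start of each metallothionein gene are shown as a description. Any link of these sequences to the ratios below was not tested. They read 5′ to 3′ on the plus strand, with matches to the MRE core in capitals. The start used for Mt1 in the RefSeq promoter table lies downstream of the first base of the gene's annotated span. Most of the Mt1 window therefore falls within that span, while the Mt2 window lies wholly before its gene. The numbers of matches in the Mt2 and Mt1 windows are thus not a like comparison.
Mt2 (chr8:94172368-94172617): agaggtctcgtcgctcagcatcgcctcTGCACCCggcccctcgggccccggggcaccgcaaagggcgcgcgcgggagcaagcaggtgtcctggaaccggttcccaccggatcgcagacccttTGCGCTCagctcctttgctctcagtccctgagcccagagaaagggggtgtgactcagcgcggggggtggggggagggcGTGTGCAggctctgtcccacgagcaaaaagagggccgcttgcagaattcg
Mt1 (chr8:94178839-94179088): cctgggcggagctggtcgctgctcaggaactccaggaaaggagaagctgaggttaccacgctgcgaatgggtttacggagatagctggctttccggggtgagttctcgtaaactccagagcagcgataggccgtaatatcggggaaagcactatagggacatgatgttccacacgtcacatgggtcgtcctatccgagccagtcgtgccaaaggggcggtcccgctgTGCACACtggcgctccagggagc
The core was searched on both strands as TGCACNC and TGCGCNC. The Mt2 window held 3 matches, at positions -223 to -217, -128 to -122 and, on the opposite strand, -50 to -44 from the start. The Mt1 window held 1 match, at -23 to -17 from the start used here. Bases after that start, which lies inside the annotated span of Mt1, were not searched, so this is no count of its MREs. Of 32851 RefSeq promoter windows of this length, 21.4% held at least 1 match and 1.26% held at least 3. The Fkbp5 window held none. The core TGACG of the cAMP response element matched once, in Mt1 on the opposite strand at -77 to -73, against 17.8% of windows with at least 1 match. It did not overlap the MRE core. Neither the full element, TGACG followed by TCA (1.55% of windows), nor the glucocorticoid response element, AGAACA and TGTTC with NNN between them (0.0304% of windows), matched in any of the 3 windows. A match describes letters only.

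With global loess normalization, which removes the trend of ratio against brightness over a whole array, Mt2 was 0.667-fold in the knockout relative to wild type and Fkbp5 was 0.608-fold, while Mt1 was 1.06-fold and did not pass the test. With print-tip loess, which fits each of the 48 print blocks (the areas printed by 1 pin) separately, Mt2 was 0.672-fold and passed, whereas Fkbp5 at 0.932-fold and Mt1 at 1.02-fold did not. The threshold was an adjusted p of 0.05 in limma. Among the 28735 clones tested, 30.4% passed with global loess (14.2% lower, 16.2% higher) and 11.4% after print-tip loess (4.61% lower, 6.76% higher). In both normalizations and as lower, 2.23% passed. Of all calls, 53.3% were higher with global loess, and this share was 65.9% with block medians subtracted and 67.8% with neighbouring spots subtracted. The 2 of 3 members called lower with global loess and the 1 of 3 after print-tip loess are to be read beside these shares. No array had the dyes exchanged, so a dye effect of a clone cannot be told apart from the genotype. In whole-gland RNA, fewer cells of a type and less RNA per cell cannot be told apart either.

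Of the whole series, the quality score kept between 69.2% and 84.9% of the spots of an array. The median wild-type (red) signal was weak, at 1.11 to 4.57 times its local background, while the knockout (green) signal was at 5.15 to 6.79 times. The clone of Adcyap1 passed the quality score on 2 arrays only, 3 and 5, with log2 ratios of -0.17 and 0.02, and gave no test. Its wild-type signal on these arrays was only 0.869 and 0.957 times the local background. The clone was thus too dim for these ratios to show whether Adcyap1 RNA differed. Brightness can differ between probes for reasons other than abundance, so the percentile of a clone within an array is only a description. The 7 measured cortex markers had a median percentile of 92.0 in knockout and 82.3 in wild-type RNA, and the 9 of the medulla of 90.2 in knockout and 84.9 in wild-type RNA. The ranges were wide, from 32.5 for the medulla marker Slc18a1 to 99.6 for the cortex marker Hsd3b1 in knockout RNA. The 5 liver and kidney markers had medians of 72.9 in knockout and 68.2 in wild-type RNA, and the adipocyte markers Fabp4 and Lpl lay at 25.5 and 46.2 in knockout and at 15.8 and 35.7 in wild-type RNA.

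**Figure D1:**
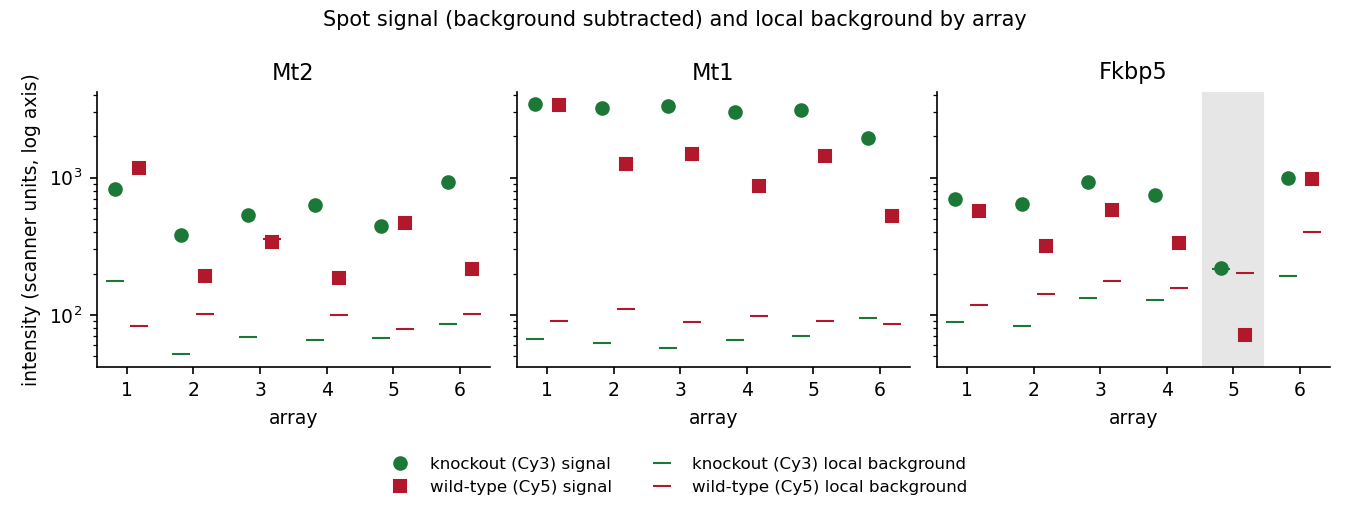
Background-subtracted spot signal (y axis, scanner units, log scale) of the Mt2, Mt1 and Fkbp5 clones on arrays 1 to 6 (x axis), with circles for knockout RNA in Cy3, squares for wild-type RNA in Cy5 and dashes for the local background of each channel. Grey marks the Fkbp5 spot of array 5, which failed the quality score. Both Mt1 signals lay well over their local background on all 6 arrays, and the wild-type signal of Mt2 on array 3 (342) lay close to its local background (357).

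Mt2 gave knockout signals of 822, 383, 536, 635, 445 and 933 units on arrays 1 to 6, against wild-type signals of 1183, 192, 342, 187, 465 and 217. The wild-type signal exceeded the knockout signal on arrays 1 and 5 only, before any normalization for the weaker red channel. Normalized by global loess, the log2 ratios were -0.85, -0.59, -0.71, -0.07, -1.31 and 0.02. Arrays 5 and 1 were the lowest, and arrays 4 and 6 lay near 0. On array 3 the local background of the wild-type channel was 357 units, against an array median of 97.2. On array 1 that of the knockout channel was 176.9 units, against an array median of 92. The wild-type signal was 14.2 and 5.88 times its local background on arrays 1 and 5, but only 0.957 to 2.14 times on arrays 2, 3, 4 and 6. The knockout signal was 4.65 to 10.9 times its local background. The mean was -0.58 ± 0.16 (SE, n = 6, adjusted p = 0.0172), with a 95% interval of -0.94 to -0.23, and 5 of 6 arrays were lower. After print-tip loess the ratios were -0.93, -0.38, -0.33, 0.01, -1.30 and -0.51, with a mean of -0.57 ± 0.15 (adjusted p = 0.0410). Array 4 alone lay above 0, and array 6, near 0 with global loess, was now the third lowest.

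The Mt2 call was close to the threshold. Without array 5 the mean with global loess was -0.44 (adjusted p = 0.0571). After print-tip loess, leaving out any 1 array gave means of -0.69 to -0.43 and adjusted p between 0.0625 and 0.0865, so that the call ended each time. Over all clones tested in that normalization, 1 passed without array 2, 1 without array 3 and 28 without array 4. Without array 1, 5 and 6 the count was 3774, 2712 and 667. Without array 4, Mt2 itself was at -0.69 ± 0.14, beside -0.57 ± 0.15 on all 6 arrays. The clone lay in print block 15, whose spots had a mean log2 ratio of -0.03, the rank 17 from the lowest of the 48 blocks. Of the 621 clones tested in that block, 15 had a lower ratio than Mt2 and 32 (5.15%) were called lower. Over all clones its ratio was at percentile 5.68 with global loess and 0.251 after print-tip loess. The spots around it, in the surrounding 5 by 5 positions, had medians of -0.57 to 0.04 on the 6 arrays. The clone lay near a corner of its block (row 2, column 2), and positions beyond the block were not used. Only 12 to 15 spots thus entered each median. With these subtracted, a correction chosen after the data were seen, Mt2 was at -0.33 ± 0.20 (adjusted p = 0.262) and lower on 4 of 6 arrays.

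Mt1 gave knockout signals of 3404, 3231, 3313, 2980, 3105 and 1930 units, against wild-type signals of 3372, 1265, 1492, 875, 1434 and 524. The knockout signal was 20.2 to 57.3 times its local background on the 6 arrays and the wild-type signal 6.12 to 37.5 times. With global loess the log2 ratios were -0.21, 0.23, 0.06, 0.32, 0.01 and 0.07. They lay on both sides of 0, with 5 of 6 arrays above it. The mean was 0.08 ± 0.12 (SE, n = 6, adjusted p = 0.646) and the 95% interval was -0.18 to 0.34, or 0.884-fold to 1.26-fold. After print-tip loess the ratios ran from -0.14 to 0.28, with a mean of 0.03 ± 0.08 (adjusted p = 0.848) and an interval of 0.899-fold to 1.15-fold. The sign of the mean was not settled: it was -0.16 with median centring, -0.02 without arrays 2 and 4, and -0.80 ± 0.25 (adjusted p = 0.0721) from the authors' deposited table of ratios, turned to knockout over wild type and centred. The block of the clone, number 34, had a mean of 0.04.

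In both loess normalizations the 2 metallothionein clones differed in the same direction on every array. The log2 ratio of Mt2 minus that of Mt1 was below 0 on 6 of 6 arrays, between -1.31 and -0.04 with global loess and between -1.36 and -0.27 after print-tip loess. The mean difference was -0.66 (95% interval -1.11 to -0.21) with global loess and -0.60 (-1.04 to -0.15) after print-tip loess. A two-sided exact permutation test that flipped the sign of each array's difference gave p = 0.03125 in both normalizations, the smallest p that 6 arrays allow. Adjusted over the 3 pairs of members it was 0.0938 in both and did not pass. With neighbouring spots subtracted, the difference was below 0 on 4 of 6 arrays, with a mean of -0.38 (95% interval -0.97 to 0.22, exact permutation p = 0.188). The other pairs rested on the 5 arrays that measured Fkbp5, where the smallest p possible is 0.0625. Fkbp5 minus Mt1 averaged -0.81 (95% interval -1.69 to 0.07, exact permutation p = 0.125) with global loess and -0.12 (-0.57 to 0.33, exact permutation p = 0.938) after print-tip loess. Mt2 minus Fkbp5 averaged 0.28 with global loess (interval -0.93 to 1.49, exact permutation p = 0.75) and -0.33 after print-tip loess (-0.91 to 0.26, exact permutation p = 0.25), so that even its sign was not settled.

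**Figure D2:**
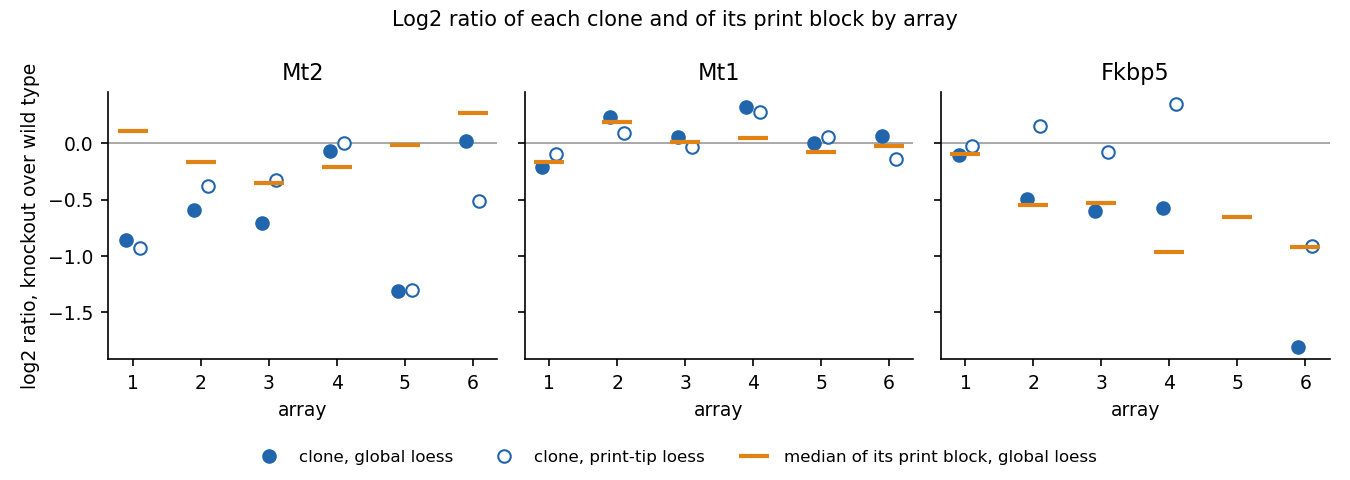
Log2 ratio of knockout over wild type (y axis) of each clone on arrays 1 to 6 (x axis), filled circles for global loess and open circles for print-tip loess, with an orange dash for the median of the other spots in the clone's print block under global loess. Mt2 lay below its block on arrays 1, 2, 3, 5 and 6, Mt1 stayed close to its block, and the block of Fkbp5 was itself between -0.97 and -0.10.

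Fkbp5 gave knockout signals of 694, 638, 931, 753, 221 and 991 units on arrays 1 to 6, against wild-type signals of 575, 319, 582, 334, 71.9 and 983. The spot of array 5 failed the quality score, with a knockout signal 1.02 times and a wild-type signal 0.357 times the local background, and its array was left out of the fit for this gene. On array 6 the local background of the wild-type channel was 405 units, against an array median of 100.3. Normalized by global loess, the log2 ratios were -0.11, -0.49, -0.60, -0.57 and -1.81 on arrays 1, 2, 3, 4 and 6. All 5 were below 0, and array 6 stood lowest. The mean was -0.72 ± 0.20 (SE, n = 5, adjusted p = 0.0189), with a 95% interval of -1.16 to -0.28. Without array 6 it was -0.44 (adjusted p = 0.0354), and with array 5 kept, by using no quality score, it was -0.53 (adjusted p = 0.138).

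After print-tip loess the Fkbp5 ratios were -0.03, 0.15, -0.07, 0.35 and -0.91, which lay on both sides of 0. Their mean was -0.10 ± 0.16 (adjusted p = 0.692, 95% interval -0.47 to 0.27), and without array 6 it was 0.10 (adjusted p = 0.511). The clone was printed in block 1, which had the lowest mean of all 48 blocks, -0.57. Of the 638 clones tested in that block, 502 (78.7%) were called lower with global loess and 170 had a lower ratio than Fkbp5. The other spots of the block had medians of -0.10, -0.55, -0.53, -0.97 and -0.92 on the 5 arrays that measured the gene. With the medians of the surrounding spots subtracted, Fkbp5 was at -0.02 ± 0.14 (adjusted p = 0.936). The clone lay at the edge of its block (column 28), so that these medians rested on 13 to 14 spots. In the same block, the zinc transporter gene Slc39a6 was at -0.75 with global loess and at -0.14 after print-tip loess, and the chaperone gene Hsp90b1 at 0.09 and 0.60. Both were named after their values were seen, for their position.

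**Figure D3:**
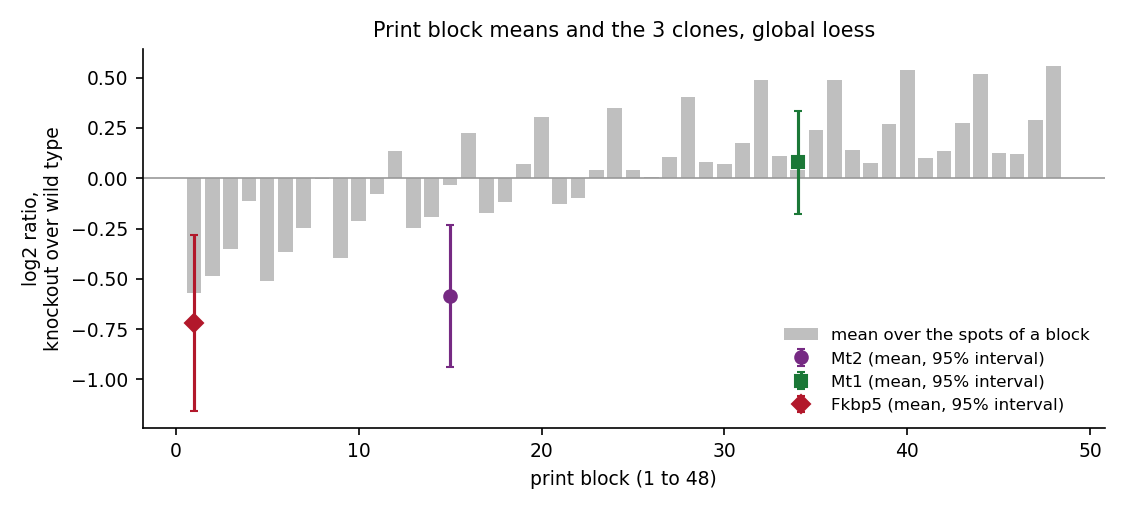
Mean log2 ratio of knockout over wild type (y axis, global loess) of the spots in each of the 48 print blocks (x axis, grey bars), with the 3 clones at their own blocks as mean and 95% interval. Block means ran from -0.57 in block 1 to 0.56, and the Fkbp5 interval includes its block's mean while that of Mt2 lies below its block's mean of -0.03.

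With global loess, the print block accounted for 46.9% of the variance in ratio between spots. The means of the blocks lay between -0.57 and -0.00416 in blocks 1 to 10 and between -0.25 and 0.56 in the other blocks. Of the 4084 clones called lower over the array, 2855 were in blocks 1 to 10, which held 6254 of the clones tested. The other genes of these pathways were taken from 11 lists of glucocorticoid, chaperone, metal, oxidative stress and cell type genes, of which 140 members were tested, each by its clone of highest signal. With global loess 14 were lower and 38 higher (37.1% in all, beside 30.4% over all clones tested). Of the 14 lower, 11 were in blocks 1 to 10, where 38 of the 140 lay and none was higher. After print-tip loess 7 were lower and 22 higher (20.7%, beside 11.4% over all clones tested). These shares are not a like comparison. The members are the brightest clones of genes in lists chosen with earlier results of these data known, whereas the other shares cover all clones tested. With that limit, the counts of each list below are to be read beside the shares over all clones. These were 14.2% lower and 16.2% higher with global loess, and 4.61% lower and 6.76% higher after print-tip loess. With print-tip loess in limma, 0 of these members passed without array 2 or array 3 and 1 without array 4, while 51, 58 and 48 had an unadjusted p under 0.05. Over all clones tested, 1, 1 and 28 passed without array 2, 3 and 4.

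Of the glucocorticoid receptor pathway, 10 of 12 genes were tested, 3 of them higher, 1 lower and 6 not past the threshold with global loess. After print-tip loess 1 was higher and 1 lower. The median log2 ratio was 0.10, or 0.04 after print-tip loess, beside 0.02 and -0.00148 over all clones. The receptor gene Nr3c1 itself was at 0.07 ± 0.14 (adjusted p = 0.711), and print-tip loess gave -0.18 (adjusted p = 0.121). Mc2r, which encodes the receptor for ACTH, the pituitary hormone that drives glucocorticoid synthesis, was at 0.12 and 0.38 and did not pass (adjusted p = 0.558 and 0.0826). Both were named after their values were seen, for their role. Hsd11b1, whose enzyme regenerates active glucocorticoid, was higher with global loess at 0.57 ± 0.15 (n = 5, adjusted p = 0.0129), whereas print-tip loess gave 0.25 (adjusted p = 0.124). Crh, the gene of corticotropin-releasing hormone, was higher at 0.41 (adjusted p = 0.0232) but not after print-tip loess (0.15), and its call ended without array 1, 2 or 4 (0.33 to 0.41).

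Serpina6 and Ncoa2 passed the same way in both normalizations. Serpina6, the gene of corticosteroid-binding globulin, was higher at 0.41 (adjusted p = 0.0459) and 0.37 (adjusted p = 0.0440), on 5 of 6 arrays. Its call with global loess ended without array 2, 3, 4 or 6 (0.31 to 0.41), and with median centring (0.28). Ncoa2, a coactivator of nuclear receptors, was lower at -0.40 (adjusted p = 0.0464) and -0.33 (adjusted p = 0.0421), on 5 of 6 arrays, and kept its call with global loess only where array 6 was the one left out (-0.44 to -0.33 without another array). Of its 2 clones, 1 was called in either normalization.

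Of 38 genes listed as induced by glucocorticoids, 22 were tested, with 4 higher, 2 lower and 16 not past the threshold. Print-tip loess in limma left 4 higher and 0 lower (8 and 1 at an unadjusted p under 0.05), and the medians were 0.02 and, in that normalization, 0.09. Cdkn1c, a cell cycle inhibitor, was higher in both, at 1.19 ± 0.17 (adjusted p = 0.000799) and 0.98 (adjusted p = 0.0227), on 6 of 6 arrays. Glul, which encodes glutamine synthetase and was printed in the same block as Mt2, was at 1.20 ± 0.23 (adjusted p = 0.00317) and 1.06 (adjusted p = 0.0455), and 4 of its 5 clones were called higher in either normalization. Foxo1, a forkhead transcription factor, was at 0.88 (adjusted p = 0.00138) and 0.35 (adjusted p = 0.0409), but another of its 4 clones was called lower after print-tip loess. The widely used reporters of receptor activity Tsc22d3, at 0.04 and -0.06 after print-tip loess, and Sgk1, at -0.01 and 0.14, did not pass in either, and nor did Klf9 at 0.15 and 0.02. Other members of the list did pass. Dusp1 was higher with global loess at 0.53 (adjusted p = 0.00686), and print-tip loess gave 0.39 (adjusted p = 0.0546). Rgs2 was at 0.47 (adjusted p = 0.114) and, passing after print-tip loess, at 0.93 (adjusted p = 0.0354). Mertk was lower with global loess at -0.46 (adjusted p = 0.0439), and print-tip loess gave -0.20 (adjusted p = 0.281). Tsc22d3, Sgk1, Klf9, Dusp1, Rgs2 and Mertk were named after their values were seen.

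The chaperone complex that holds the unliganded receptor had 15 of 16 genes tested, 4 of them higher and 11 not past the threshold. After print-tip loess 1 was higher and 2 were lower, and none passed the same way in both. Hsp90aa1, an Hsp90 gene, was at 0.84 ± 0.13 (adjusted p = 0.00111) with global loess, and print-tip loess gave 0.07 (adjusted p = 0.588). Of its 6 clones, 3 were called with global loess. Ptges3, the gene of the Hsp90 cochaperone p23, was at 0.71 (adjusted p = 0.00673) and 0.36 (adjusted p = 0.0632). Dnajb1, named after its values were seen, passed in opposite directions, at 0.52 (adjusted p = 0.0161) and -0.29 (adjusted p = 0.0465). Among the FK506-binding relatives of Fkbp5, 9 of 16 were tested, 1 higher, 1 lower and 7 not past the threshold, and 0 passed in limma after print-tip loess (4 at an unadjusted p under 0.05). Fkbp1b, a regulator of calcium release channels, was at 0.91 ± 0.18 (adjusted p = 0.00340) and 0.53 (adjusted p = 0.0515), and Fkbp11 at -0.58 (adjusted p = 0.00994) and -0.24 (adjusted p = 0.144). Fkbp4, which encodes FKBP52, the immunophilin that takes the place of FKBP51 in the active receptor complex, was at 0.02 and 0.08, chosen for its role after its values were seen.

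In the metal handling list, 28 of 34 genes were tested, with 5 higher, 7 lower and 16 not past the threshold, and a median of -0.00131. The 7 lower members, which include the zinc transporter genes Slc30a3, Slc30a5 and Slc30a7, were all printed in blocks 1 to 10, and none of the 7 passed after print-tip loess. In that normalization 3 members of the list were higher, 2 others were lower, and the median was -0.04. The largest of the 7 was Slc30a5, at -0.85 ± 0.14 (adjusted p = 0.00161), and print-tip loess gave -0.28 (adjusted p = 0.0549). Fth1, the ferritin heavy chain gene that stores iron, was higher in both, at 0.78 ± 0.16 (adjusted p = 0.00443) and 0.75 (adjusted p = 0.0260), with 4 of its 5 clones called higher in either. Its call ended with median centring (0.35, adjusted p = 0.0960) and without arrays 2 and 4 (0.50, adjusted p = 0.0774). Slc31a1, the copper importer gene, was higher at 0.61 (adjusted p = 0.0171) and 0.41 (adjusted p = 0.0453), and its call with global loess ended without array 2 or 4 (0.44 to 0.54) and with median centring (0.50, adjusted p = 0.0515). Of its 3 clones, 1 was called in either normalization. Mtf1, the factor that acts on MREs, was at -0.04 ± 0.13 (adjusted p = 0.840) and 0.09, and the Mtf1 target Slc30a1 was at -0.28 (adjusted p = 0.143) and -0.19. Both were named after their values were seen, for their role.

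Of 29 oxidative stress genes, 25 were tested, with 6 higher, 2 lower and 17 not past the threshold, and a median of 0.31. Print-tip loess in limma left 6 higher and 0 lower (12 and 0 at an unadjusted p under 0.05), with a median of 0.26. Sod1, superoxide dismutase, was higher in both at 0.73 ± 0.13 (adjusted p = 0.00224) and 0.69 (adjusted p = 0.0227), although only 1 of its 3 clones passed. Nfe2l2, the transcription factor of the antioxidant response, was at 0.73 (adjusted p = 0.00354) and 0.38 (adjusted p = 0.0499), with 1 of its 2 clones called with global loess and both after print-tip loess. Selenop, a selenium carrier, was at 0.49 (adjusted p = 0.0157) and 0.64 (adjusted p = 0.0248), and its call with global loess ended without array 2 or 4 (0.40 to 0.45) and with median centring (0.40). Of its 4 clones, 3 were called with global loess and 2 after print-tip loess. Prdx3, a mitochondrial peroxiredoxin, was at 1.29 (adjusted p = 0.00175) and 0.66 (adjusted p = 0.0876), with 1 of its 2 clones called with global loess.

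Markers of cell types were read in the same way. Of 7 cortex markers 4 were higher with global loess and 3 after print-tip loess, with medians of 0.64 and 0.67, among them the steroidogenic genes Hsd3b1 (1.60 and 1.40), Nr5a1 (0.64 and 0.62) and, with global loess only, Star (1.53, and 0.67 after print-tip loess). Of 9 medulla markers 6 were higher and 1 lower with global loess, and 3 higher and 1 lower after print-tip loess. The granins Chgb (1.01 and 0.70), Scg2 (0.64 and 0.89) and Scg3 (1.36 and 1.22) were higher in both. Chga was at 1.26 and 0.39, and its clone of highest signal passed with global loess, while all 3 of its clones were called higher with global loess and 2 after print-tip loess. Slc18a1, which loads monoamines into vesicles, fell in both (-0.41 and -0.46). Of the 3 Scg3 clones, 2 were called with global loess and 1 after print-tip loess. Median centring ended the calls of Scg2 (0.42) and Slc18a1 (-0.34). Without array 2 or 4 the Scg2 call ended (0.45 to 0.58), and without array 2, 3, 4 or 6 that of Slc18a1 did (-0.46 to -0.33). Of 5 liver and kidney markers, Alb was at 0.62 and 0.09 and Ttr, lower in both normalizations, at -0.39 and -0.36. The Ttr call with global loess ended without array 2, 3 or 4 (-0.38 to -0.34) and with median centring (-0.34). Of 11 macrophage and endothelial markers 4 were higher with global loess and 1 after print-tip loess, the complement gene C1qb (0.94 and 0.88, by 1 of its 2 clones). The related genes C1qa (0.08 and 0.14) and C1qc (0.18 and 0.12) did not pass in either, and nor did Lyz2 (-0.05 and 0.03). C1qa, C1qc and Lyz2 were named after their values were seen. Cd68 was at 0.63 and 0.25, and its call with global loess ended without array 3, 4 or 6 (0.40 to 0.64). Neither adipocyte marker passed in limma, and 1 had an unadjusted p under 0.05 in each normalization. Lpl, at 0.37 and 0.31, passed with array weights (0.42, adjusted p = 0.0415) and without array 5 (0.49, adjusted p = 0.0448). The part of any of these cell types in the metallothionein and Fkbp5 ratios was not tested.

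**Figure D4:**
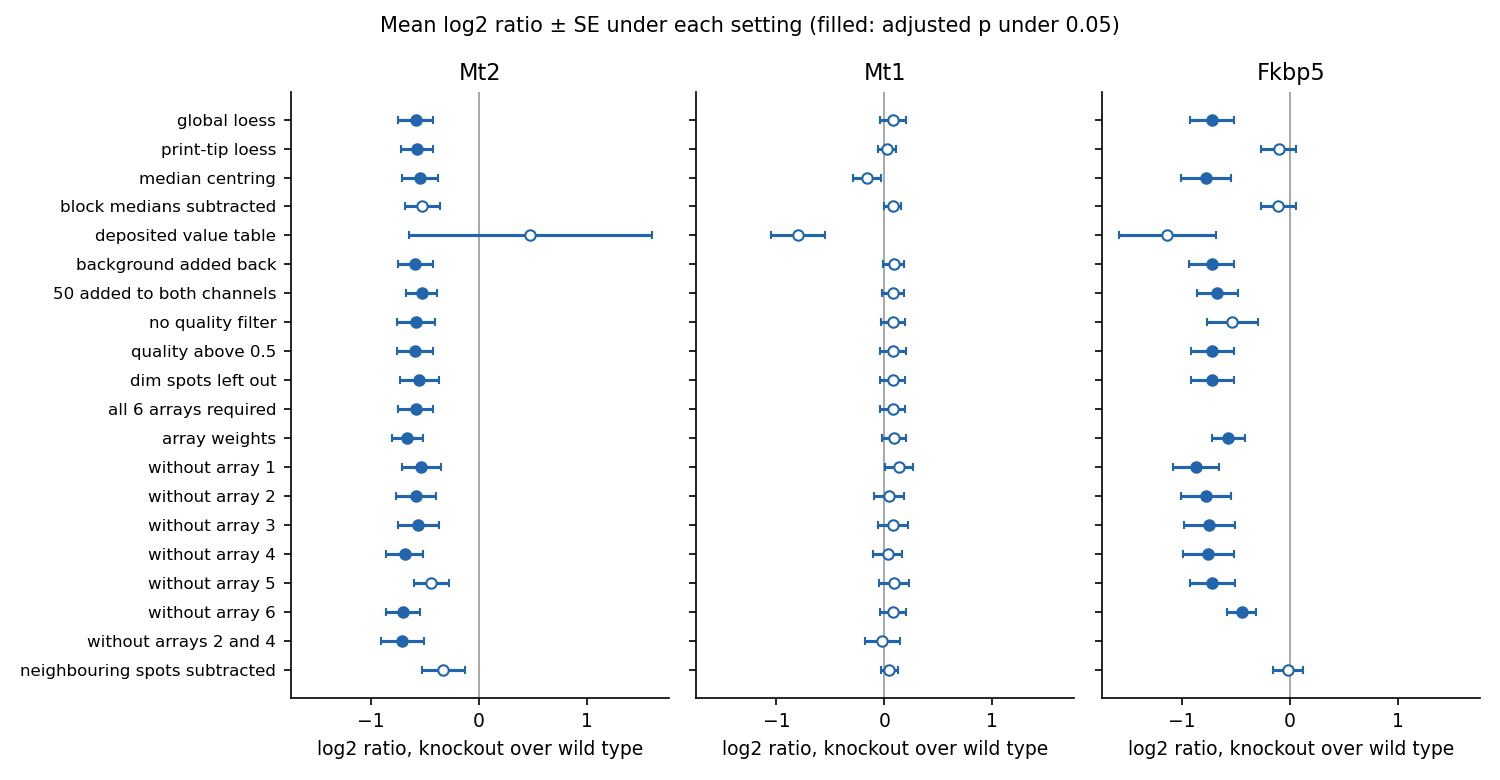
Mean log2 ratio of knockout over wild type (x axis) with its SE for Mt2, Mt1 and Fkbp5 under each way of processing (y axis), filled where the adjusted p was under 0.05. Among the settings plotted, Mt2 lay between -0.71 and -0.33 except with the deposited value table (0.48), Mt1 lay between -0.16 and 0.14 except with that table (-0.80), and Fkbp5 was nearest 0 where print blocks or neighbouring spots were corrected for.

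Over the arrays, the genes with the ratio pattern most like each member were found by Pearson's r with global loess, as a description with no test. For Mt2, over 6 arrays and about 14680 clones, they were Fkbp1a, Rhoa, Snx5, Zfp296 and Rhob, at 0.988 for each. For Mt1 they were C530005A16Rik (0.997), Eif4b, Eif3f, Rpl14 and Gclc (0.985). For Fkbp5, over 5 arrays and about 15320 clones, they were Tsc22d4 (0.998), Dnajc25, Dstyk, Phf8 and Sipa1l1 (0.996). Among so many clones and over so few arrays, the highest r values can be large by selection alone. After print-tip loess the r of these 15 genes ran from -0.16 for Dnajc25 to 0.972 for Rhob. All of these values share the same arrays and the weak red channel. Between Mt1 and Mt2 the r over the 6 arrays was 0.539, and 0.444 after print-tip loess.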

How the data were processed

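Adrenal RNA was measured on 6 spotted cDNA arrays, each with 1 knockout (Cy3) and 1 wild-type (Cy5) sample, per the labels. The deposited scanner files hold the spot intensity of each channel with the local background already subtracted, a quality score and a red over green ratio divided by 1 constant per array, per the file headers and the values. The authors' deposited table holds log2 red over green after a second background subtraction, as its match to the scanner values showed (99.8% of its entries linked). Software versions are not given in the sources used here.

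The log2 ratio of knockout over wild type was computed for spots with quality above 0.3 and normalized in each array by loess (span 0.3), globally or per print block. Clones on at least 4 arrays were tested with limma 3.58.1 in R 4.3.3 (adjusted by Benjamini-Hochberg over 28735 clones, threshold 0.05); pairs of members were compared with scipy 1.17.1 in Python 3.11.15. Control and empty spots were left out. Of 36070 clones, 22364 had 1 annotated gene, 1105 several and 12601 none listed. The number of arrays limits the precision.

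The members and gene lists were chosen with earlier results of these data known. Named were the members, Adcyap1, in each list the 2 strongest changes with the same sign in both normalizations (the smallest p where none passed) and all members passing both, and the 5 genes most like each member; others are marked. Alternatives covered normalization, background, quality, dim spots, array weights and each array left out.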

Additional observations from a re-analysis of the deposited data

Results flagged for a closer look

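Among 68 sets of array values (34 genes in both normalizations), 2 held 1 array far from the others by Dixon's test, which chance gives in about 1 of 20 sets. The log2 ratio of the zinc transporter gene Slc30a5 was -0.14 on array 1 with global loess, against -1.14 to -0.88 on the other arrays. That of Sod1 was 1.23 on array 4 after print-tip loess, against 0.48 to 0.62 on the others. None of the sets of Mt1, Mt2 or Fkbp5 was among these.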

How the results depend on the processing

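Fkbp5, at -0.72 with global loess, missed the threshold with print-tip loess (-0.10), block medians subtracted (-0.11), the deposited value table (-1.13), no quality score (-0.53) and neighbouring spots subtracted (-0.019). Leaving out 1 array gave -0.87 to -0.44, and -0.21 to 0.10 after print-tip loess (-0.12 without array 1), where the sign turned without array 6. Mt1, at 0.08, turned sign with median centring (-0.16), the value table (-0.80), and without arrays 2 and 4 (-0.019, and -0.054 after print-tip loess). Leaving out 1 array gave 0.03 to 0.14, and -0.025 to 0.059 after print-tip loess, where the sign turned without array 4. Mt2, at -0.58, missed the threshold with block medians subtracted (-0.52, adjusted p = 0.0536), neighbouring spots subtracted (-0.33) and print-tip loess without arrays 2 and 4 (-0.77). Leaving out 1 array gave -0.71 to -0.44, and -0.69 to -0.43 after print-tip loess (-0.50, -0.61, -0.62 and -0.59 without array 1, 2, 3 and 6). Its sign turned with the value table (0.48 ± 1.12), where the authors' deposited table lists -7.58 for red over green on array 3. Of the 8739 clones past the threshold, the count was 3268 with print-tip loess, 4328 with block medians subtracted, 90 with the value table (100% higher), 2243 without arrays 2 and 4 (72.2% higher), 93 in the same after print-tip loess and 3716 with neighbouring spots subtracted. Leaving out 1 array gave 4490 to 8670, and 1 to 3774 after print-tip loess (2712 without array 5, 667 without array 6). Of 140 list members, 52 passed with global loess, 29 with print-tip loess, 1 with the value table, 18 without arrays 2 and 4, 3 in the same after print-tip loess and 28 with neighbouring spots subtracted. Leaving out 1 array gave 33 to 56, and 0 to 31 after print-tip loess (21 without array 5, 8 without array 6). Signs also turned with the value table for Serpina6 (-0.22), Glul (-0.093), Hsp90aa1 (-0.16), Fth1 (-0.36), Selenop (-0.0018), Scg2 (-0.10), Slc18a1 (0.43) and Ttr (0.22), with neighbouring spots subtracted for Crh (-0.0082), and without arrays 2 and 4 after print-tip loess for Hsp90aa1 (-0.031). Without arrays 2 and 4, the global loess calls of Crh (0.40), Ncoa2 (-0.28), Serpina6 (0.31), Ptges3 (0.55), Fkbp11 (-0.46), Fkbp1b (0.60), Fth1 (0.50), Slc31a1 (0.31), Nfe2l2 (0.56), Selenop (0.33), Nr5a1 (0.47), Scg2 (0.33), Ttr (-0.36), C1qb (0.50) and Cd68 (0.40) ended. The subtraction of neighbouring spots was chosen after seeing the data. The cause of these changes was not tested.

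Fkbp5 gave no value with all 6 arrays required or without arrays 2 and 4. Other clones of a member could not be tried, since each had 1, and slide as a block could not be fitted with 1 array per slide. Each ratio already pairs the knockout and wild-type RNA of its array, so the fit of these ratios was the paired analysis. No further pairing was possible, since there is 1 group of ratios. Median red signals of 1.11 to 4.57 times the local background limit the wild-type side of every ratio.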
